A study of Mus musculus with 24 samples.

Results

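The oligoadenylate synthetase (Oas) family was followed through osteoclast formation in STING-deficient (KO) and wild-type (WT) mouse cells. Its members were chosen by gene symbol as Oas1a, Oas1g, Oas2, Oas3, Oasl1 and Oasl2, and all 6 were found among the 10721 genes of the deposited table. All 6 were also among the 10081 genes that reached a group mean of 1 FPKM (fragments per kilobase of transcript, scaled to the mapped fragments of the library) in at least 1 group. RNA came from bone marrow cells of 3 WT mice (480, 529 and 531) and 3 KO mice (481, 528 and 532), all female and 10 to 12 weeks old. Cells of both genotypes were grown for 72 hours in 40 ng/mL mCSF, the growth factor of macrophages, and those taken at this point without RANKL are the osteoclast precursors of day 0. The other cells were plated at 25000 per well with 10 ng/mL RANKL, which turns precursors into osteoclasts, and 20 ng/mL mCSF, and were taken on days 2, 3 and 4. Each mouse gave 1 library on each day, from pooled wells, which makes 24 libraries in 8 groups of 3. The sources used here do not give the mutant allele or the strain.

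Oas enzymes bind double-stranded RNA, a sign of viral infection, and then join ATP into short chains of adenylate linked through 2′-5′ bonds, called 2-5A. 2-5A acts as a second messenger of antiviral defence. The genes are induced by type I interferon through a transcription factor complex that includes Irf9 and binds a DNA element called the ISRE. STING, the adaptor protein that the KO mice are described as lacking, passes the signal of cytosolic DNA sensing on to interferon genes. Oas1a and Oas1g are close paralogs with a single synthetase unit, while Oas2 and Oas3 carry several such units in tandem. The Oas-like proteins Oasl1 and Oasl2 have ubiquitin-like domains at their ends. Oasl2 keeps synthetase activity. Oasl1 lacks it, and is known in mice to repress translation of Irf7, the interferon-inducing transcription factor.

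All 6 members lie on chromosome 5, in 2 clusters (GRCm38, GENCODE vM21). Oasl2 (chr5:114896936-114912234) and Oasl1 (chr5:114923240-114937915) lie on the plus strand. Oas2 (chr5:120730333-120749853), Oas3 (chr5:120753098-120777661), Oas1g (chr5:120876142-120887613) and Oas1a (chr5:120896256-120907521) lie on the minus strand of the other cluster. RefSeq promoter windows of GRCm38.p6, from 250 bases before to 50 bases after the start, matched 5 of 6 members, and that of Oas2 was not analysed here. The 100 bases just before the start are shown because these 5 members, which moved together in these data, differ there in ISRE pattern matches. Each sequence reads 5′ to 3′ on the gene's strand, and capitals mark letters that match the ISRE pattern searched, which is GAAA, any 2 bases and GAAA again (on the other strand TTTC, any 2 bases and TTTC). The regions are chr5:120907526-120907625 for Oas1a, chr5:120887614-120887713 for Oas1g and chr5:120777660-120777759 for Oas3, all on the minus strand. They are chr5:114923140-114923239 for Oasl1 and chr5:114896834-114896933 for Oasl2, both on the plus strand.
Oas1a: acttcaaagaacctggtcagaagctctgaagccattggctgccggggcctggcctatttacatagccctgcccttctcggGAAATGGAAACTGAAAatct
Oas1g: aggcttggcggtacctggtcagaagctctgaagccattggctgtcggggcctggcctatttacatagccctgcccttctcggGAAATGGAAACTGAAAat
Oas3: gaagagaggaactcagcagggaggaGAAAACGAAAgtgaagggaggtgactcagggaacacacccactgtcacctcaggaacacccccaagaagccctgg
Oasl1: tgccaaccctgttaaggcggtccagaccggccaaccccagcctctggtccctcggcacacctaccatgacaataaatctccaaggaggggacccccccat
Oasl2: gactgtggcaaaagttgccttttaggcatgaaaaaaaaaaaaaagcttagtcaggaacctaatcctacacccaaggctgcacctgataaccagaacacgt

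The promoters of Oas1a and Oas1g each held 2 overlapping ISRE matches, GAAATGGAAA and GAAACTGAAA, which began 20 and 14 bases before the start of Oas1a and 18 and 12 bases before that of Oas1g. Oas3 held 1 match, GAAAACGAAA, 75 bases before its start. The windows of Oasl1 and Oasl2 held 0 matches on either strand, which says only that these letters are not in this window. Over all 32851 RefSeq promoters of this length, 3.44% held the pattern, and among the genes tested here 3.96% did. The GAS pattern TTCNNNGAA, which reads the same on both strands, matched once, in Oas1a at 98 bases before the start, against 8.3% of all promoters. The 250 bases before the starts of Oas1a and Oas1g were 86.9% identical over 244 aligned bases, while the other 9 pairs of members with a promoter had 50.7% to 63.7%. The transcripts of these paralogs are alike as well. Of all stretches of 50 bases in the Oas1a transcript, 57.6% also occurred in Oas1g, and of those in Oas1g 54.1% occurred in Oas1a. At 75 bases the shares were 47.6% and 44.6%. Reads can therefore be split between this pair, so the single values of Oas1a and Oas1g are uncertain. Oas2, Oasl1 and Oasl2 shared 0 stretches of 50 bases with any other gene, and Oas3 shared 0.792%.

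The files give no read totals, so the depth behind each FPKM is unknown and no counting interval is attached. Summed FPKM per library ran from 459180 to 734974. The targeted gene, listed under its older symbol Tmem173, measured 25.2 ± 3.7 FPKM in WT precursors at day 0 and 4.84 ± 0.26 FPKM in KO precursors (SD, n = 3), so KO libraries kept reads on it. All 8 macrophage markers were in the table, with a summed level at day 0 of 13055 to 24853 FPKM in WT and 14703 to 20385 FPKM in KO. Most of these sums came from Lyz2 alone, with day 0 means of 15456 FPKM in WT and 15292 FPKM in KO. The summed level of 9 osteoclast markers went from 104 to 153 FPKM at day 0 to 41304 to 48001 FPKM at day 4 in WT, and from 68.7 to 178 to 45185 to 49877 FPKM in KO. Differences are given as log2(FPKM + 1), a scale on which changes of weakly expressed genes come out too small. They were tested with limma, with p-values adjusted by Benjamini-Hochberg over all genes tested, at a threshold of 0.05.

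**Figure D1:**
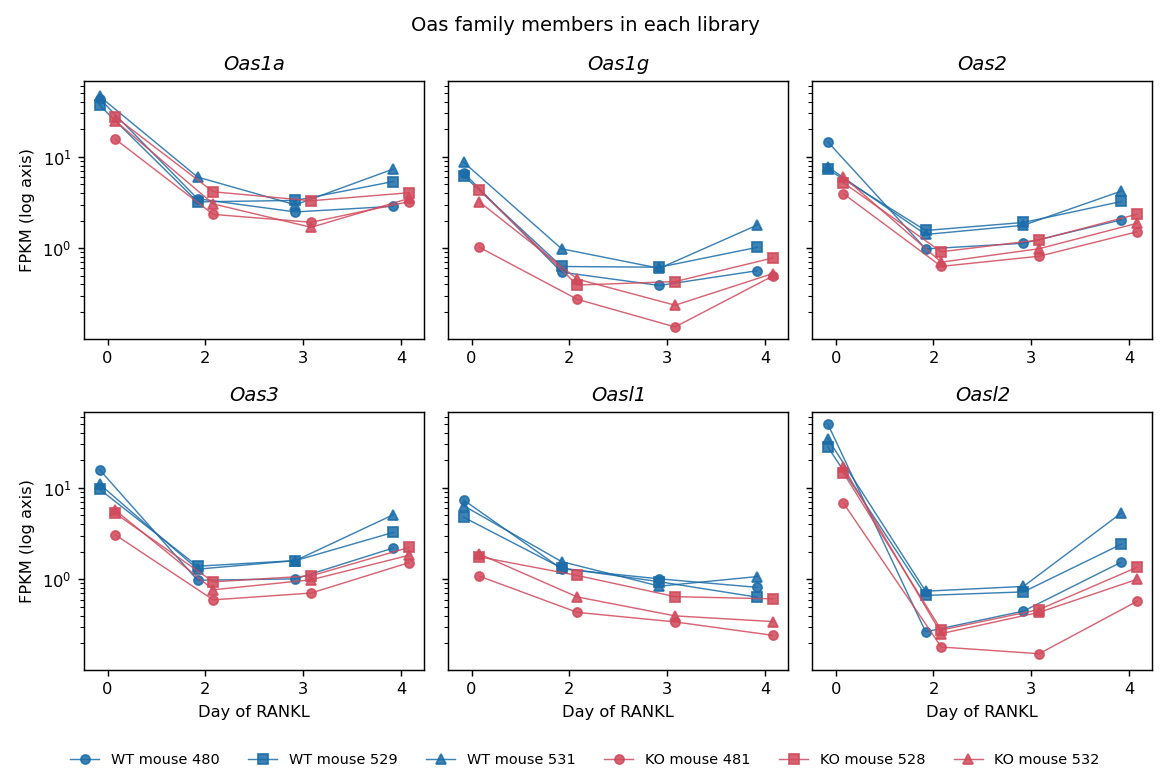
FPKM of each Oas member (log axis) against day of RANKL, with 1 line per mouse, blue for WT and red for KO. Every member was highest at day 0, where all KO libraries lay below all WT libraries. By group mean, Oas2, Oas3 and Oasl2 were lowest on day 2 and Oasl1 on day 4. In WT mouse 531, Oasl1 rose from 0.84 FPKM on day 3 to 1.07 FPKM on day 4.

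Before RANKL, every Oas member was lower in each of the 3 KO libraries than in each of the 3 WT libraries. The WT mean was between 1.86 times (Oas1a) and 3.9 times (Oasl1) the KO mean. Such a separation, KO below WT, was seen in 3.65% of all genes tested. Among the enzymes with a single synthetase unit, Oas1a measured 43.2, 36.6 and 45.9 FPKM in WT mice 480, 529 and 531, and 15.6, 27.3 and 24.7 FPKM in KO mice 481, 528 and 532. Its paralog Oas1g measured 6.68, 6.2 and 8.7 in WT and 1.02, 4.33 and 3.21 FPKM in KO. For both, mouse 481 was the lowest of the 6. Oas2 measured 14.6, 7.3 and 7.77 in WT and 3.94, 5.2 and 6.03 FPKM in KO, with mouse 480 far above the other WT mice and a narrow gap between the genotypes. Oas3, the largest of the family, measured 15.8, 9.66 and 11.0 in WT and 3.06, 5.26 and 5.69 FPKM in KO. Of the Oas-like genes, Oasl2 measured 50.3, 28.2 and 34.6 in WT and 6.83, 14.6 and 16.9 FPKM in KO. Oasl1 measured 7.36, 4.77 and 6.37 in WT and 1.08, 1.76 and 1.89 FPKM in KO, which leaves the widest gap of the 6 as a ratio of means. In bulk samples, fewer cells of a type and less RNA per cell cannot be told apart.

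Of the 6 members, 1 passed the test at day 0, where 0.0893% of all genes were called lower in KO. Oasl1 fell by 1.47 on the log2 scale (SE 0.247, 95% interval -1.99 to -0.96, limma adjusted p = 0.00896). The log2 differences of the others were -1.54 for Oasl2, -1.22 for Oas3, -1.19 for Oas1g, -0.90 for Oas1a and -0.80 for Oas2 (SE 0.339 to 0.465, limma adjusted p from 0.673 to 1). Libraries varied more at day 0 than later, and the fit gave day 0 a weight of 0.355 against 1.2 to 1.7 for the other days. At an unadjusted p below 0.05 by limma, 5 of 6 members passed, all but Oas1a, against 1.96% of all genes. The median log2 difference of the members was -1.21, against -0.01 over all genes tested. With all libraries weighted equally, Oas3, Oasl2 and Oas1g passed as well (limma adjusted p = 0.00506, 0.0141 and 0.0294). That setting also raised the calls over all genes, as given under the dependence on processing. The call of Oasl1 was lost with a pseudocount of 0.1 (limma adjusted p = 1), in a fit on the day 0 libraries alone (0.166) and in 5 of 6 fits that left out 1 mouse. Those 5 were without WT 480, 529 or 531 (limma adjusted p = 0.124, 0.0697 and 0.213) and without KO 481 or 532 (0.0627 and 0.0802).

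**Figure D2:**
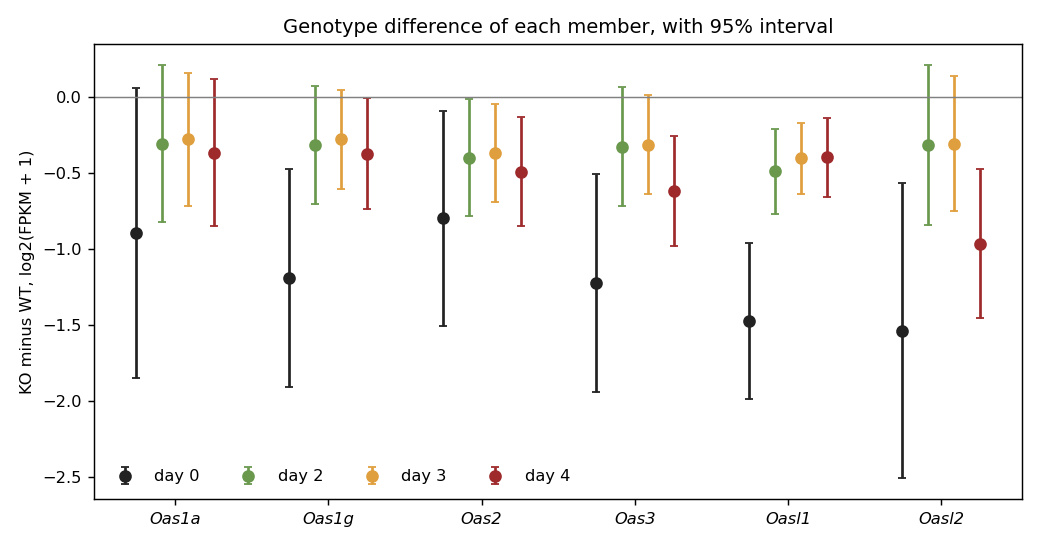
KO minus WT difference of each Oas member on the log2(FPKM + 1) scale on each day, with the 95% interval of the fit. All 24 points lie below 0, and the day 0 points (black) lie lowest for every member, from -0.80 for Oas2 to -1.54 for Oasl2.

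Oasl1 also stood lower relative to its family in KO. Within a library, Oasl1 made up 5.14% to 5.57% of the summed FPKM of the 6 members in WT at day 0 and 3.01% to 3.44% in KO. Set against Oas1a alone, Oasl1 was at 17.0%, 13.0% and 13.9% of the Oas1a level in WT mice 480, 529 and 531, and at 6.96%, 6.43% and 7.66% in KO mice 481, 528 and 532. Neither measure overlapped between the genotypes. Both were chosen after the values were seen, and an exact permutation test of 3 libraries against 3 cannot go below p = 0.1. The share of Oasl2 did not overlap either, at 30.2% to 36.5% in WT and 21.7% to 29.0% in KO. That of Oas1a did not overlap in the other direction, at 31.3% to 40.2% in WT and 42.3% to 49.4% in KO, so the gene against which Oasl1 was set took up more of the family in KO. The summed level of the 6 members was 92.7 to 138 in WT and 31.5 to 58.5 FPKM in KO.

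In order of level per length at day 0, Oas1a and Oasl2 led in both genotypes, with 41.9 ± 4.82 and 37.7 ± 11.4 in WT and 22.6 ± 6.19 and 12.8 ± 5.29 FPKM in KO (SD, n = 3). Those leading genes overlapped with each other in their libraries, and both were above the next gene in every library of their genotype. The lower 4 overlapped with their neighbours in the order. In WT they were Oas3 (12.2 ± 3.24 FPKM), Oas2 (9.89 ± 4.08), Oas1g (7.19 ± 1.33) and Oasl1 (6.16 ± 1.31). In KO they were Oas2 (5.06 ± 1.05 FPKM), Oas3 (4.67 ± 1.41), Oas1g (2.85 ± 1.68) and Oasl1 (1.58 ± 0.435).

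Of 2 other genes of the 2-5A pathway, 0 passed between the genotypes before RANKL by limma, also at an unadjusted p below 0.05 and with equal weights. Abce1, which recycles ribosomes, and Pde12, which breaks down 2-5A, had differences of 0.17 and 0.07 (limma adjusted p = 1 each). Of the 6 other Oas genes of the mouse, 2 were in the table. Oas1b, annotated as a polymorphic pseudogene, measured 1.65 ± 0.807 in WT and 0.817 ± 0.104 FPKM in KO, and Oas1c 3.69 ± 0.99 and 2.51 ± 0.0231 FPKM. Their log2 differences were -0.50 and -0.40 (limma adjusted p = 1 each). Of the stretches of 50 bases in Oas1c, 16.3% also occurred in other genes, so its values are uncertain too.

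Of 11 genes of type I interferon signalling, 1 passed at day 0. It was Usp18, which removes Isg15 and restrains the interferon receptor, with a log2 difference of -1.66 (SE 0.283, limma adjusted p = 0.00998). Irf7 measured 44.6 ± 14.2 in WT and 13.4 ± 2.76 FPKM in KO, a difference of -1.64 that did not pass (SE 0.456, limma adjusted p = 0.647). Irf9, which acts on the ISRE, had a difference of -0.41 (limma adjusted p = 1). The median of the 11 was -0.16. Of the genes of double-stranded RNA sensing, 9 of 10 were tested and 0 passed by limma, with differences from -1.51 for Zbp1 to -0.04 for Ticam1 and a median of -0.41. At an unadjusted p below 0.05, 3 passed (Zbp1, Dhx58 and Eif2ak2), and with equal weights Zbp1 and Dhx58 passed (limma adjusted p = 0.0144 and 0.00611). Of the genes of cytosolic DNA sensing, 7 of 8 were tested and 1 passed, the targeted Tmem173 (log2 difference -2.15, limma adjusted p = 8.26e-06). The exonuclease gene Trex1 had a difference of -0.74 (limma adjusted p = 0.657).

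**Figure D3:**
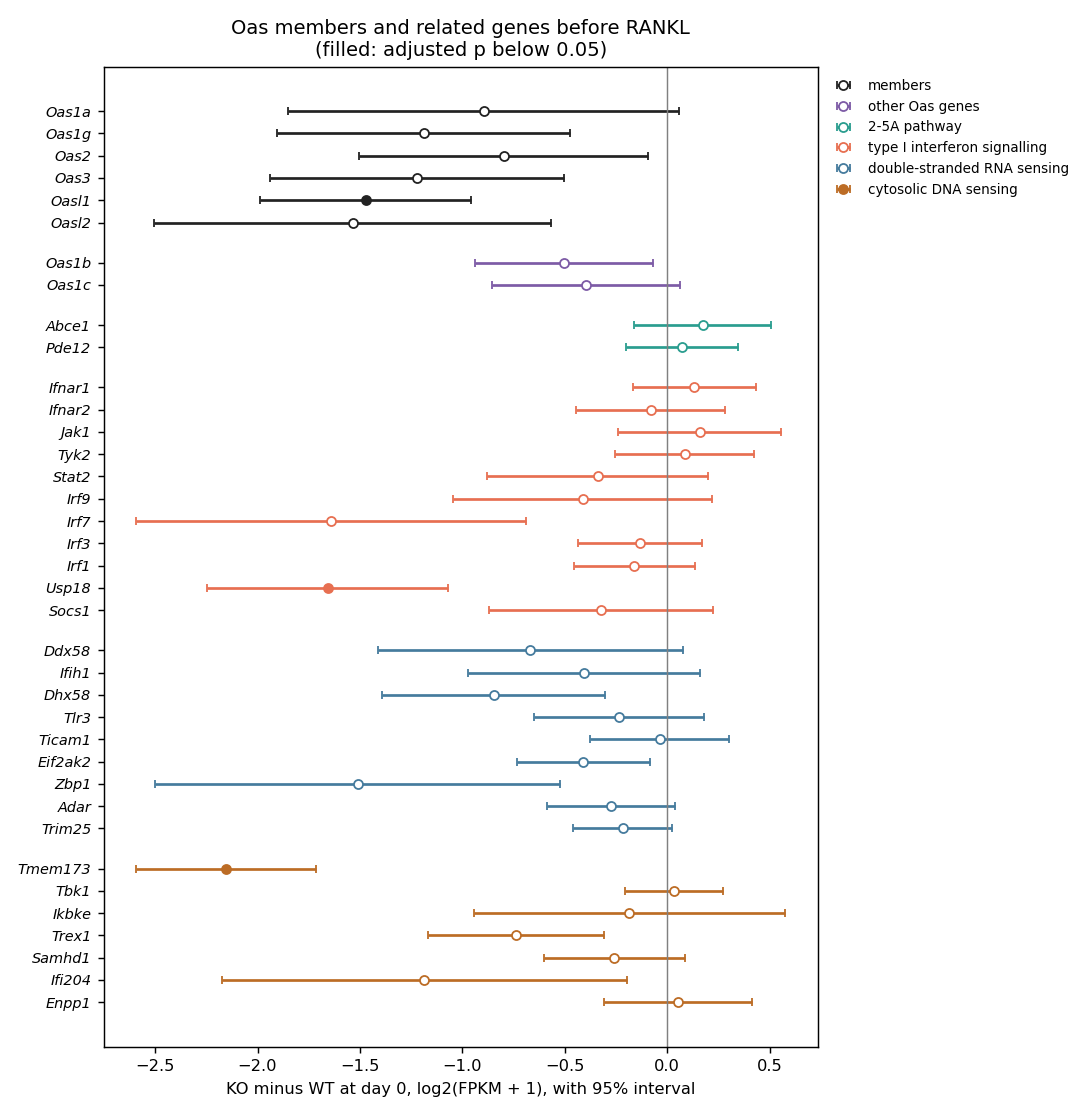
KO minus WT difference at day 0 on the log2(FPKM + 1) scale, with the 95% interval of the fit, for the 6 Oas members and the genes of related lists; filled points had an adjusted p below 0.05. All 6 members lie below -0.75, Abce1 and Pde12 lie at 0.17 and 0.07, and the filled points are Oasl1, Usp18 and Tmem173.

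After RANKL, KO means stayed below WT means for every member on every day, and 0 of 6 members passed by limma on day 2, 3 or 4. The calls over all genes were 0.0298%, 0.0198% and 0.0298% on these days. At an unadjusted p below 0.05, 2, 2 and 5 of 6 members passed, against 1.01%, 3.55% and 1.7% of all genes, and with equal weights 0 passed. For 1 value per mouse, the mean of its RANKL days, 0 of 6 passed by limma, where 0.0198% of all genes were called. Without adjustment, 5 of 6 had a limma p below 0.05, against 1.27% of all genes. The differences of these means ran from -0.53 for Oasl2 (95% interval -0.93 to -0.13) to -0.32 for Oas1a (-0.74 to 0.11). Oasl1 had -0.43 (-0.67 to -0.20, limma adjusted p = 1).

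Oasl1 was the one member whose KO libraries all lay below the WT libraries on each of the 4 days. On day 2 it measured 1.3, 1.33 and 1.56 FPKM in WT mice 480, 529 and 531 and 0.434, 1.1 and 0.64 FPKM in KO mice 481, 528 and 532. On day 3 it measured 1.01, 0.939 and 0.84 in WT and 0.341, 0.645 and 0.397 FPKM in KO. On day 4 it measured 0.815, 0.636 and 1.07 in WT and 0.243, 0.61 and 0.344 FPKM in KO. The gap on day 4 was narrow, between mouse 529 and mouse 528. Oasl1 levels on days 2, 3 and 4 were low, and the depth behind them is unknown. The WT mean was 1.93, 2.01 and 2.1 times the KO mean on days 2, 3 and 4, against 3.9 times at day 0. On day 2, Oas1g, Oas2 and Oas3 were separated in the same way, 4 of 6 members with Oasl1 against 2.27% of all genes. On day 3 Oasl1 was alone among the 6, where 3.51% of all genes were separated. On day 4 Oasl1 was joined by Oasl2, 2 of 6 against 1.64%. Outside the family, Usp18 and the targeted Tmem173 also had all KO libraries below all WT libraries on each of the 4 days. The share of all genes separated on all 4 days was not computed.

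Oasl2 had the largest difference of the 6 on day 4. It measured 1.54, 2.42 and 5.32 FPKM in WT mice 480, 529 and 531 and 0.573, 1.35 and 0.997 FPKM in KO mice 481, 528 and 532, with a log2 difference of -0.96 (SE 0.236, limma adjusted p = 0.742). Mouse 531 was far above the rest, and mouse 480 was close to the highest KO mouse. Oas3 measured 2.2, 3.26 and 5.09 in WT and 1.52, 2.23 and 1.83 FPKM in KO (difference -0.62, limma adjusted p = 1). Oas2 measured 2.04, 3.24 and 4.21 in WT and 1.51, 2.35 and 1.87 FPKM in KO (difference -0.49, limma adjusted p = 1). In both genes mouse 480 lay below mouse 528, so the groups overlapped. Oas1a measured 2.87, 5.36 and 7.35 in WT and 3.22, 4.04 and 3.5 FPKM in KO, where mouse 480 was the lowest of all 6. Oas1g measured 0.566, 1.02 and 1.79 in WT and 0.496, 0.781 and 0.527 FPKM in KO. Their differences were -0.37 each (limma adjusted p = 1). Without mouse 480, Oas2, Oas3 and Oasl2 passed on day 4 (differences -0.70, -0.84 and -1.255, limma adjusted p = 0.0211 each), and the calls over all genes went from 3 to 45.

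All 6 members went down during RANKL culture in both genotypes. From day 0 to day 2 every member fell in WT and in KO, where 37.5% of all genes fell in WT and 36.5% in KO. No culture without RANKL was sampled after day 0, so the effects of RANKL, of less mCSF and of culture time cannot be told apart. Oasl2 fell most, from 37.7 ± 11.4 to 0.557 ± 0.255 FPKM in WT (SD, n = 3), a log2 change of -4.61 (SE 0.374, limma adjusted p = 8.94e-10). Its day 2 mean was 1.48% of that at day 0. In KO it went from 12.8 ± 5.29 to 0.238 ± 0.0507 FPKM, a change of -3.39 (limma adjusted p = 8.68e-08). Oas1a went from 41.9 ± 4.82 to 4.23 ± 1.54 FPKM in WT, a change of -3.07 (SE 0.369, limma adjusted p = 2.67e-07). In WT, Oas3, Oas1g and Oas2 changed by -2.55, -2.25 and -2.18 (limma adjusted p from 6.43e-08 to 4.73e-07). Oasl1 fell least, from 6.16 ± 1.31 to 1.4 ± 0.143 FPKM, a change of -1.57 (limma adjusted p = 5.67e-07). In KO it went from 1.58 ± 0.435 to 0.725 ± 0.342 FPKM, a change of -0.58 (limma adjusted p = 0.0123) that did not pass without mouse 532 (adjusted p = 0.128). The members' median change at day 2 in WT was -2.40, against 0.004 over all genes.

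All 6 members remained below day 0 on days 3 and 4. By limma each passed in WT, where 41.6% and 42.7% of all genes fell, and in KO, where 39.5% and 40.8% fell. Changes at day 4 ran from -3.31 for Oasl2 to -1.36 for Oas2 in WT and from -2.74 for Oasl2 to -0.88 for Oasl1 in KO. Oas3 in KO, with a change of -0.96 (limma adjusted p = 0.00314), did not pass without mouse 532 (adjusted p = 0.0517). The day 4 means were 8.2% (Oasl2) to 32.0% (Oas2) of those at day 0 in WT and 7.62% (Oasl2) to 39.8% (Oas3) in KO.

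Beside the members, Abce1 and Pde12 rose in WT by day 2, by 1.43 and 0.84 (limma adjusted p = 4.72e-09 and 5.07e-07). Oas1c and Oas1b changed by -1.76 and -1.04 (limma adjusted p = 2.25e-08 and 1.28e-05). Of the 11 interferon signalling genes, 6 fell and 1 rose in WT at day 2. The log2 changes were -3.50 for Usp18, -4.54 for Irf7, -2.33 for Irf9 and -1.15 for the receptor subunit gene Ifnar2 (limma adjusted p from 3.2e-11 to 3.49e-07). The gene that rose was the kinase gene Jak1, by 0.36 (limma adjusted p = 0.0428). Of 9 double-stranded RNA sensing genes 7 fell, led by Dhx58 and Zbp1 with changes of -3.07 and -4.49 (limma adjusted p = 6.73e-11 and 1.83e-09). Macrophage markers and most lists of markers of other blood cells went down over the same step. An exception was the dendritic cell list, where of 2 genes tested 1 fell and 1 rose in WT (median log2 change -0.09). Of 8 macrophage markers 6 fell in each genotype, with a median log2 change of -1.84 in WT and -2.13 in KO, and their summed level at day 2 was 4190 to 5412 FPKM in WT and 4402 to 4574 FPKM in KO. The summed level of 6 neutrophil markers went from 5581 to 15290 FPKM at day 0 to 119 to 207 FPKM at day 2 in WT, that of 6 B cell markers from 22.6 to 81.3 to 0.328 to 0.433 FPKM, and that of 3 monocyte markers from 98.8 to 163 to 2.41 to 2.76 FPKM. The 2 plasmacytoid dendritic cell markers in the table (Siglech and Cox6a2, of 4 in the list) went from 5.29 to 7.27 FPKM to 0.576 to 1.52 FPKM. Their part in the fall of the Oas genes was not tested.

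Between day 2 and day 4 the members parted. In WT, Oas2, Oas3 and Oasl2 rose and Oasl1 fell, where 34.2% of all genes rose and 32% fell. Oasl2 rose from 0.557 ± 0.255 to 3.09 ± 1.98 FPKM (SD, n = 3), a log2 change of 1.30 (SE 0.244, limma adjusted p = 8.99e-05). Oas3 rose from 1.22 ± 0.214 to 3.52 ± 1.46 FPKM, a change of 0.98 (limma adjusted p = 7.15e-05), and Oas2 from 1.32 ± 0.3 to 3.16 ± 1.09 FPKM, a change of 0.82 (limma adjusted p = 0.000415). Oasl1 fell from 1.4 ± 0.143 to 0.839 ± 0.217 FPKM, a change of -0.39 (SE 0.13, limma adjusted p = 0.0128) that did not pass without mouse 529 (adjusted p = 0.0854). Oas1a and Oas1g changed by 0.21 and 0.28 and did not pass (limma adjusted p = 0.446 and 0.185; with the mouse as a block Oas1g passed, adjusted p = 0.0458).

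In KO the same 3 members rose, where 33.4% of all genes rose and 29.8% fell. Oas2 changed by 0.73 and Oas3 by 0.69 (limma adjusted p = 0.00133 and 0.00227). Oasl2 went from 0.238 ± 0.0507 to 0.974 ± 0.39 FPKM (SD, n = 3), a change of 0.66 (limma adjusted p = 0.0244). That call was lost with equal weights (adjusted p = 0.0635) and without mouse 528 or 532 (0.169 and 0.119). Oasl1 changed by -0.29 and did not pass (limma adjusted p = 0.0552), but fell with the mouse as a block (adjusted p = 0.00307), a pseudocount of 0.1 (0.0311) or median scaling (0.0396). Of the 11 interferon signalling genes, 9 rose over these days in each genotype. Macrophage markers rose over the same days, 8 of 8 in WT and 7 of 8 in KO, with median log2 changes of 0.937 and 0.997 and summed levels of 7762 to 11323 FPKM in WT and 8897 to 9829 FPKM in KO on day 4. Of 9 osteoclast markers, 8 rose in each genotype. The part of these shifts in the rise of the Oas genes was not tested.

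The parting of Oasl1 from its family was seen in each mouse. Its change from day 2 to day 4 was -0.34, -0.51 and -0.31 on the log2 scale in WT mice 480, 529 and 531 and -0.21, -0.38 and -0.29 in KO mice 481, 528 and 532. All 6 were negative, and the change of each other member in the same mouse was higher. In an exact sign-flip test over 6 mice, two-sided, Oasl1 differed from each of the other 5 members (p = 0.0312, the smallest the test can give, and 0.0426 adjusted by Benjamini-Hochberg over 15 pairs). The mean gap to Oasl1 ran from 0.52 (Oas1a) to 1.32 (Oasl2). Oas1a and Oas1g each rose less than Oas2, Oas3 and Oasl2 in 6 of 6 mice, by mean gaps of 0.53 to 0.79 (exact p adjusted 0.0426 each). For 4 pairs a difference was not found: Oas1a with Oas1g, Oas2 with Oas3, and Oasl2 with Oas2 and with Oas3 (exact p adjusted from 0.273 to 0.594). With a pseudocount of 0.1, Oasl2 rose more than Oas2 and Oas3 in 6 of 6 mice too, and 13 of 15 pairs differed (exact p adjusted 0.0361). This test was added after the values were seen. The lowest group mean came on day 2 for Oas2, Oas3 and Oasl2, on day 3 for Oas1a and Oas1g, and on day 4 for Oasl1, in both genotypes. For Oasl1 the means of days 3 and 4 were close, at 0.928 ± 0.0834 and 0.839 ± 0.217 FPKM in WT (SD, n = 3). In KO they were 0.461 ± 0.162 and 0.399 ± 0.19 FPKM. Day 3 was not tested against day 2 or day 4.

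**Figure D4:**
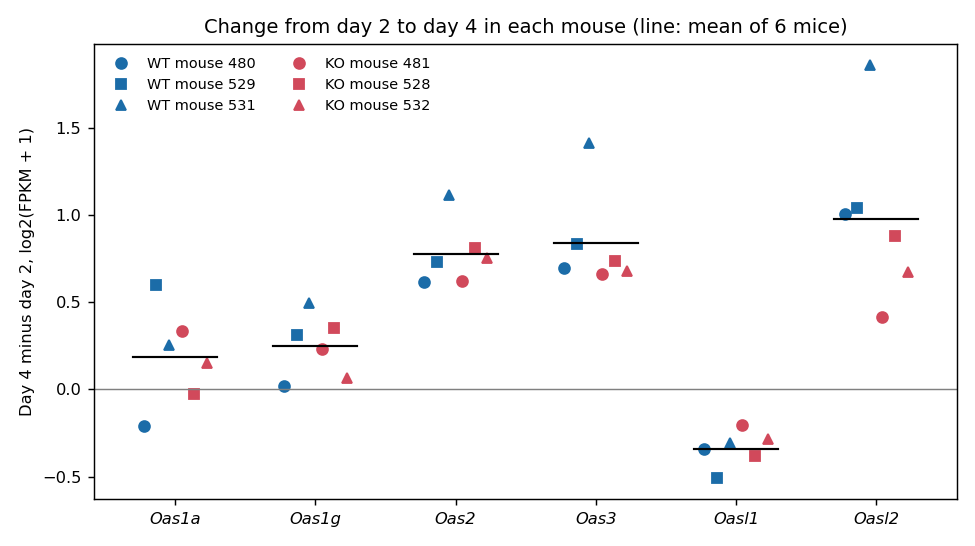
Change from day 2 to day 4 on the log2(FPKM + 1) scale in each mouse, for each Oas member; blue points are WT mice, red points are KO mice and the line is the mean of 6 mice. Oasl1 lies below 0 in all 6 mice, from -0.51 to -0.21, while Oas2, Oas3 and Oasl2 lie above 0.41 in all 6.

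The makeup of the family shifted with these courses. Oasl2 made up 30.2% to 36.5% of the summed FPKM of the members at day 0 in WT, 3.53% to 7.58% on day 2 and 15.2% to 21.4% on day 4. Oasl1 went the other way, from 5.14% to 5.57% at day 0 to 13.0% to 17.2% on day 2 and 3.99% to 8.13% on day 4. In KO the share of Oasl2 was 21.7% to 29.0%, 3.59% to 4.33% and 7.59% to 11.9% on these days, and that of Oasl1 3.01% to 3.44%, 9.74% to 14.2% and 3.22% to 5.37%. The ratio of Oasl2 to Oasl1 was thus 5.43 to 6.84 in WT libraries at day 0, 0.205 to 0.501 on day 2 and 1.89 to 4.98 on day 4. Oas1a was the highest member by group mean on every day in both genotypes.

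Whether the genotype gap itself changed was tested as the interaction of genotype and day. On days 2, 3 and 4, 0 of 6 members passed by limma, where 0.0397%, 0.0694% and 0.0496% of all genes were called. At an unadjusted p below 0.05, 4, 4 and 2 members passed, against 1.55%, 3.52% and 1.44% of all genes, and with equal weights 0 passed. All 18 values were positive, a smaller gap than at day 0 on the log2(FPKM + 1) scale. Without WT mouse 480 the value of Oas2 was 0 (rounded) on day 2 and -0.19 on day 4, and neither passed. As a ratio of means, the gap of Oasl2 was not smaller on day 4, where the WT mean was 3.17 times the KO mean against 2.95 times at day 0. With a pseudocount of 0.1 its interaction on day 4 was 0.15 (limma adjusted p = 0.999). Oasl1 had 0.98, 1.07 and 1.08 on the log2 scale on days 2, 3 and 4 (SE 0.272 to 0.281, limma adjusted p = 1, 0.641 and 0.894). With the mouse as a block, Oasl1 passed on days 3 and 4 (limma adjusted p = 0.0489 and 0.0456). Oasl2 had 1.22, 1.23 and 0.57 (limma adjusted p = 1, 0.906 and 0.999). These comparisons share the day 0 libraries.

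Members moved together from mouse to mouse. Mouse 481 was the lowest KO mouse for 6, 6, 5 and 6 of the 6 members on days 0, 2, 3 and 4, and mouse 528 the highest for 2, 5, 6 and 6. Among WT mice, mouse 480 was the highest for 4 of 6 members at day 0 and the lowest for 5 of 6 on each RANKL day, and mouse 531 was the highest for all 6 on day 4. At day 0, B cell markers summed to 81.3 FPKM in mouse 480 and 107 FPKM in mouse 481, against 22.6 to 42.5 FPKM in the other 4 mice. Neutrophil markers summed to 15290 FPKM in mouse 480 and 12346 FPKM in mouse 481, against 5581 to 8629 FPKM in the others. So the WT mouse and the KO mouse with most of these markers were the highest and the lowest of their genotype for most Oas members, and the part of these cells in the genotype difference was not tested. On the RANKL days, mice 480 and 481 had the lowest summed level of macrophage markers of their genotype. Mouse 480 had 4190, 4920 and 7762 FPKM on days 2, 3 and 4, against 5043 to 5412, 5965 to 6671 and 10531 to 11323 FPKM in the other WT mice. Mouse 481 had 4402, 5249 and 8897 FPKM, against 4505 to 4574, 5773 to 5930 and 9208 to 9829 FPKM in the other KO mice. Lyz2 was the largest term of these sums, with WT means of 2939, 3135 and 6355 FPKM on days 2, 3 and 4. Cd68, next in level, was not lowest in mouse 480, which had 1366, 1929 and 2506 FPKM. It was lower in mouse 531 on days 2 and 3 (1303 and 1890 FPKM) and in mouse 529 on day 4 (2289 FPKM). Cd14 was lowest in mouse 480 among the WT mice on each of these days (25.4, 24.8 and 32.5 FPKM). Among the KO mice, Cd68 was lowest in mouse 481 on days 3 and 4 (1848 and 2309 FPKM). On day 2 it was lower in mouse 528 (1332 against 1376 FPKM in mouse 481). Cd14 was lowest in mouse 481 on day 2 (38.7 FPKM). On days 3 and 4 it was lower in mouse 532 (32.9 and 45.7 FPKM) than in mouse 481 (35.9 and 47.8 FPKM). The part of macrophage markers in the low Oas values of mice 480 and 481, and in the day 4 calls made without mouse 480, was not tested. On the RANKL days all 6 B cell markers were below 0.5 FPKM in every library.

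Over the 24 libraries, Pearson's r of log2(FPKM + 1) between pairs of members ran from 0.815 (Oas2 with Oasl1) to 0.99 (Oas2 with Oas3), with a median of 0.928. These libraries share the fall after day 0, and with the group means subtracted the range was 0.525 to 0.97 and the median 0.736. Genes outside the family with the most similar pattern were Dhx58, H2-K1 and Bst2 for Oas1a (r = 0.988, 0.987 and 0.985) and Trim30a, Gm12250 and Rtp4 for Oas1g (0.982, 0.979 and 0.978). Irf7, Gbp2 and Slfn5 were nearest both to Oas2 (0.986, 0.986 and 0.981) and to Oas3 (0.987, 0.983 and 0.984). For Oasl2 they were Ifi47, Xaf1 and D14Ertd668e (0.993, 0.993 and 0.992). Oasl1 had other and looser neighbours: Mnda, Tmem173 and Trex1 (0.949, 0.948 and 0.934). Of these, Tmem173 is the gene targeted in the KO mice, and its low KO values enter this r. Mnda measured 4.86 ± 0.566, 1.11 ± 0.282, 0.56 ± 0.0866 and 0.751 ± 0.202 FPKM in WT on days 0, 2, 3 and 4 (SD, n = 3), and Tmem173 25.2 ± 3.7, 6.26 ± 1.04, 4.43 ± 0.351 and 4.44 ± 0.919 FPKM. The day 4 means of both were below those of day 2, as for Oasl1. The mean of Mnda was lowest on day 3 and that of Oasl1 on day 4, a difference that was not tested. The mean of the 6 members was nearest to Cmpk2, Usp18, Xaf1 and Ifi204 (0.99, 0.989, 0.987 and 0.987), followed by Ifi47, Gm12250, Igtp and D14Ertd668e (0.986 to 0.981). With group means subtracted it was nearest to Xaf1, Ifi47, Usp18, Rsad2 and Ifi204 (0.938 to 0.919). All these are descriptions over 24 libraries of 6 mice.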

How the data were processed

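RNA was measured by bulk RNA-seq in 24 libraries. The tools were HISAT2 2.0.5, Cufflinks 2.2.1 and Cuffdiff and the build mm10, per the submitters' processing notes. The sources used here do not give the read length, strand, annotation or rule for multi-mapping reads. The authors deposited FPKM values per gene and library in 1 table of 10721 genes, whose name marks a selection by a rule that is not given, so adjusted p-values refer to a preselected set. All value columns carry the genotype, day and mouse of 1 sample, and 0 were unused. Judged by the spacing of low values, mouse 531 at WT day 3 had 0.688 times the depth of the other libraries of its group.

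FPKM are not counts, so log2(FPKM + 1) was tested with limma 3.58.1 (R 4.3.3): 1 mean for each of 8 groups, 16 residual degrees of freedom, arrayWeights with 1 weight per day, a mean-variance trend, a filter for a mean of 1 FPKM or more in some group, and two-sided p-values adjusted by Benjamini-Hochberg within each of 16 comparisons at 0.05. Means of RANKL days had 4 residual degrees of freedom. The fit ran without a block for the mouse; the same mice were sampled on all days within a genotype, so mouse numbers pair libraries by animal, and same-mouse deviations from the group means correlated across genes with a median r of 0.136 (WT) and 0.261 (KO). Tested on simulated data with 200 of 10081 genes changed, the KO against WT fit recovered 150 at day 0 and 180, 187 and 184 on days 2, 3 and 4, with 13, 9, 9 and 17 false calls. With equal weights, 169 were recovered at day 0 with 198 false calls. At day 0 the day-weighted fit recovered 12 of the smallest planted changes and 50 of the largest. The simulated noise had its own spread on each day, which the day weights assume, and no part shared by mouse. It therefore cannot rank the weightings for the real libraries.

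The members, the lists and the weights were chosen with earlier results of these data known. The text names all members, the other Oas genes found in the table, 2-5A genes, up to 4 genes with the smallest adjusted p of each other list, and the genes with the highest correlation to each member (3), to their mean (8) and to it with group means subtracted (5). Irf9, Eif2ak2, Ticam1 and Jak1 in some comparisons are outside that rule and were chosen after their values were seen. Some genes of the 2-5A and interferon signalling lists are not reported here, and the counts leave them out. Promoters came from RefSeq GRCm38.p6, positions and transcripts from GENCODE vM21 (GRCm38, the same build as mm10). Alternatives were equal weights, a pseudocount of 0.1, median scaling, no filter, a filter at 5 FPKM, a block by mouse, only the groups compared, no trend, and each mouse left out.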

Additional observations from a re-analysis of the deposited data

How the results depend on the processing

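Of 1326 recomputed member differences, 1301 kept their side of the threshold, and 13 lost and 12 gained a call. All kept their direction except the interaction values of Oas2 without WT 480 on days 2 and 4, which came to 0 (rounded) and -0.19 and did not pass. The fall of all 6 members on days 2, 3 and 4 held in WT under every alternative run. Members called between the genotypes at day 0 numbered 1, against 4 with equal weights, 0 with a pseudocount of 0.1, 0 with only the groups compared, and 0 to 1 without single mice. On day 4 they numbered 0, and 0 to 3 without single mice, with 3 without WT 480. The replicate block by mouse gave 1 member called in the interaction on days 3 and 4 each, against 0, and beside the results named in the report it changed no other call of a member. Over all genes, the calls at day 0 were 10, against 38 with equal weights, 2 with a pseudocount of 0.1, 6 with a filter at 5 FPKM, 3 with only the groups compared and as few as 4 without single mice. On days 2, 3 and 4 and for the mean of RANKL days, 3, 2, 3 and 2 genes were called, and between 1 and 5 under other settings except 45 without WT 480 on day 4. Interaction calls were 4, 7 and 5, and between 0 and 7 elsewhere. With 5 mice the sign-flip test cannot pass 0.05, so no mouse was left out there. On days 2 and 3 the group means of the members other than Oas1a lay between 0.238 and 1.61 FPKM, where the depth is unknown and the pseudocount compresses differences, and those of Oas1a between 2.3 and 4.23 FPKM. Group means were also below 1 FPKM on day 4 for Oasl1 in WT (0.839 FPKM). In KO this held for Oasl1, Oas1g and Oasl2 (0.399, 0.601 and 0.974 FPKM).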

Other observations

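Genes beside the 2 Oas clusters gave these values. Of 6 tested neighbours of the Oas1 to Oas3 cluster, 102 to 450 kb away, 0 passed between the genotypes at day 0 by limma, with log2 differences from -0.55 for Trafd1 to 0.16 for Tpcn1. Trafd1, an interferon-responsive regulator 450 kb after the cluster, had day 0 means of 65.7 (WT) and 43.4 (KO) FPKM, a difference that did not pass (limma adjusted p = 0.587), and fell by 2.07 on the log2 scale from day 0 to day 2 in WT (limma adjusted p = 6.83e-12). The nearest tested neighbour there, Ddx54, changed by -0.15 at day 2 (limma adjusted p = 0.2). Of 6 tested neighbours of the Oasl cluster, 4.24 to 205 kb away, 0 passed between the genotypes at day 0 by limma, with differences from -0.29 for 1500011B03Rik to 0.16 for Mlec. 2210016L21Rik, 4.24 kb after Oasl1, fell by 0.49 by day 2 in WT, and 1500011B03Rik, 73.5 kb before Oasl2, fell by 1.66 (limma adjusted p = 0.000746 and 4.28e-08).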
